A study of Rattus norvegicus with 12 samples.

Results

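The chemokines described here are 8 genes, namely the CC chemokines Ccl2, Ccl3, Ccl4, Ccl7 and Ccl20 and the CXC chemokines Cxcl1, Cxcl2 and Cxcl12. They were taken as the probes whose platform annotation gives 1 of these symbols, which is 1 probe per gene and 8 of the 13337 genes with a symbol on the array. All 8 were among the 10234 probes tested of 22523. The data are Illumina bead arrays of heart RNA from 12 samples, all of the outbred rat strain Sprague-Dawley, and the labels give 3 groups of 4: phasic systolic overload (SO), phasic diastolic overload (DO), and hearts with no loading at any point of the cycle as control (CN). Systole is the phase in which the ventricle contracts and diastole the phase in which it fills, and the series title asks whether a load on the left ventricle in one phase acts on gene expression differently from a load in the other. All groups share the strain and the tissue, and the labels give no age, no length or means of loading, no chamber, no slide and no statement that each heart came from a separate animal. The p-values therefore rest on the spread among the samples as deposited, part of which may be technical.

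Chemokines are small secreted proteins that bind receptors on leukocytes and direct their movement into tissue. CC chemokines such as Ccl2 and Ccl7 act mainly on monocytes, T cells and dendritic cells, and the CXC chemokines Cxcl1 and Cxcl2 act on neutrophils through the receptor Cxcr2. Most are switched on by Tnf, Il1b and other inflammatory signals through the transcription factor NF-kB, whereas Cxcl12 is made in resting tissue and holds Cxcr4-bearing cells in place. In the heart, fibroblasts, endothelial cells, resident macrophages and cardiomyocytes can all make chemokines.

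Several of these genes lie side by side in the rat genome. In RefSeq's gene table for assembly GRCr8, Ccl2 and Ccl7 are neighbours on chromosome 10, as are Ccl3 and Ccl4 on the same chromosome and Cxcl1 and Cxcl2 on chromosome 14, with 0 protein-coding genes starting between the members of each pair. Ccl20 is on chromosome 9 and Cxcl12 on chromosome 4. RefSeq promoter windows, from 250 bases before to 50 bases after the gene start in GRCr8, were matched for 5 of the 8 genes. Shown here are the window of Ccl7, the gene whose probe followed that of its neighbour most closely, those of the neighbours Cxcl1 and Cxcl2, and that of Cxcl12 for contrast, each read 5′ to 3′ on the gene's strand. They lie at chr10:67513845-67514144 on the plus strand (Ccl7), chr14:17479272-17479571 on the minus strand (Cxcl1), chr14:17467206-17467505 on the minus strand (Cxcl2) and chr4:152060531-152060830 on the plus strand (Cxcl12). Capitals mark matches to the kappaB consensus bound by NF-kB and to TATAAA.
Ccl7: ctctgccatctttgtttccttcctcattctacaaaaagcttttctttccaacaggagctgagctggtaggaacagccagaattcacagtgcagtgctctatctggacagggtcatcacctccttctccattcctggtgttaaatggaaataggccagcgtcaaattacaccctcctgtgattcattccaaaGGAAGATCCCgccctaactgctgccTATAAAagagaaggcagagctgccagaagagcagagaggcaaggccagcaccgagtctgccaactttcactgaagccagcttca
Cxcl1: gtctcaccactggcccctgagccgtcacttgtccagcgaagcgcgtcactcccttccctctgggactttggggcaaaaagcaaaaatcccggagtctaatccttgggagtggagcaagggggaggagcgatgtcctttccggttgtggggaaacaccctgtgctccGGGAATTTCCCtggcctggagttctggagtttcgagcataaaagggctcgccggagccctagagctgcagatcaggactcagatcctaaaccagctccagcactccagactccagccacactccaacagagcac
Cxcl2: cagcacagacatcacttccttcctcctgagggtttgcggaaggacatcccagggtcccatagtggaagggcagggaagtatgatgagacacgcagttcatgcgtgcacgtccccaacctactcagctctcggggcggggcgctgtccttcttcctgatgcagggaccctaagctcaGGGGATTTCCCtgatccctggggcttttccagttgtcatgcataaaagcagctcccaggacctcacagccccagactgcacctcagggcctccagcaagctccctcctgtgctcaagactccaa
Cxcl12: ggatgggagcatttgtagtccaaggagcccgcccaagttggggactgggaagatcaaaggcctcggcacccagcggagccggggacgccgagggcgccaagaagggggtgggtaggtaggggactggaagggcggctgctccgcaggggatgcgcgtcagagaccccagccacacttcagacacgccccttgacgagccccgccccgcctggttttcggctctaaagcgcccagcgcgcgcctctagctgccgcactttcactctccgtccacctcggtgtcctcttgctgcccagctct

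The 10-letter kappaB consensus, searched on both strands, was found in the windows of Ccl7, Ccl20, Cxcl1 and Cxcl2 and not in that of Cxcl12, against 7.51% of the 33469 promoter windows of the same length. In Ccl7 the match GGAAGATCCC began at position -59 from the gene start. Cxcl1 and Cxcl2 each held a pair of matches that overlap, GGGAATTTCC with GGAATTTCCC in Cxcl1 and GGGGATTTCC with GGGATTTCCC in Cxcl2, and Ccl20 held GGAAAACCCC. TATAAA, searched on the gene's strand, was found in Ccl7 among these 5 windows and in 8.8% of all windows. The AP-1 motif TGANTCA, on both strands, was found as TGATTCA in Ccl7 alone among the 5 and in 7.33% of all windows, and it does not overlap the kappaB match. These matches describe the letters of the windows only.

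Values are normalized log2 intensities of a probe, and a probe's level is compared between hearts and never with another probe. A probe counted as detected in a heart where its deposited detection p-value was under 0.05. Between 9249 and 9931 probes were detected per array, and r between any 2 normalized arrays was 0.984 to 0.992. Of 13 cardiomyocyte markers, 11 were on the array and all 11 were tested, Tnni3 and Myl2 among them.

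None of the 8 chemokines differed between the groups at an adjusted p under 0.05 in any of the 3 comparisons (limma, Benjamini-Hochberg over 10234 probes), and in each comparison all 8 had overlapping groups. The background was the same at that threshold, with 0% of all probes called in SO against CN, in DO against CN and in SO against DO, where the smallest adjusted p was 0.52, 0.34 and 0.50. At an unadjusted p under 0.05, limma gave 593, 562 and 647 probes in the same order of comparisons. In SO against CN, 1 chemokine had an unadjusted p under 0.05 and a higher mean, where 3.18% of all probes were in that class and 2.62% were in the lower one. In DO against CN, 1 chemokine was in the lower class, which held 3.07% of all probes, and 0 were in the higher class, which held 2.42%. In SO against DO, 0 chemokines were in either class, which held 3.51% (higher) and 2.81% (lower) of all probes. Groups without overlap made up 1.97% (higher) and 1.52% (lower) of all probes in SO against CN, 1.10% and 1.67% in DO against CN, and 1.72% and 1.41% in SO against DO.

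The direction of the means was mixed. Against CN, 4 of the 8 chemokines had a higher mean and 4 a lower mean in SO, with a median log2 difference of 0.01, and 5 were higher and 3 lower in DO, with a median of 0.14. Between the loads, 3 were higher and 5 lower in SO than in DO, with a median of -0.13. The medians over all tested probes were 0.00, -0.00 and 0.01. The same CN hearts enter both comparisons with control, so those are not independent. In every comparison the 95% interval of all 8 differences lay within 2-fold in either direction. For Ccl20, near background, and Cxcl1, near the top of the intensity range, that interval does not bound the change of the transcript. Scaling each array to its median in place of quantile normalization moved the median of all probes by -0.17 in SO against CN and by -0.18 in DO against CN, and there 2 chemokines were higher and 6 lower against CN in SO, and 2 higher and 6 lower in DO. The genes whose direction turned are named with their values.

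**Figure D1:**
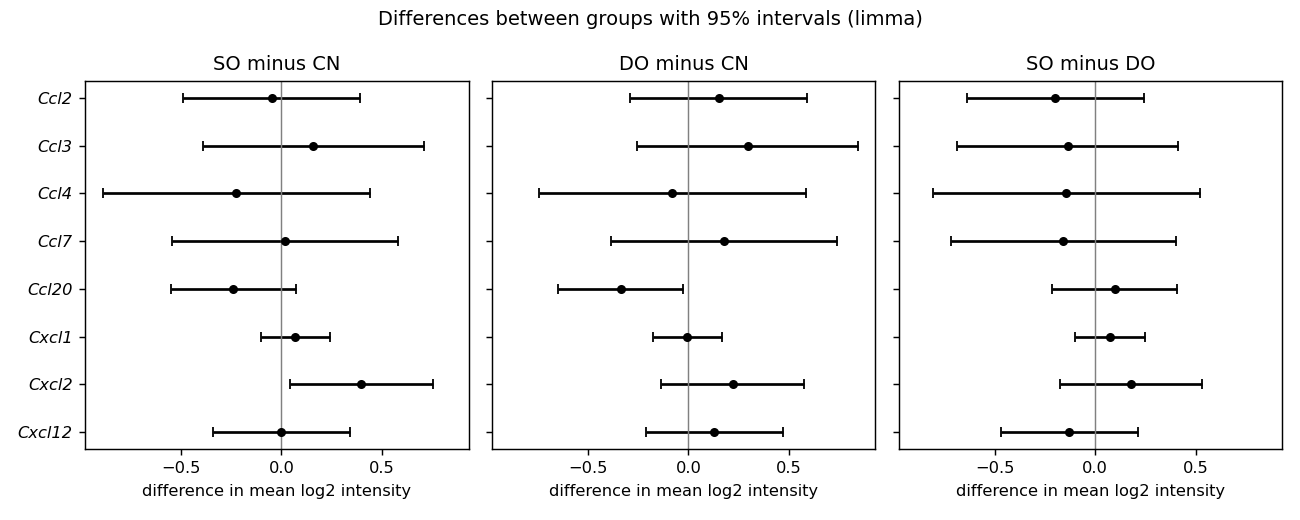
Differences in mean normalized log2 intensity (x axis) for the 8 chemokines (rows) in SO minus CN, DO minus CN and SO minus DO. Points are limma estimates and bars their 95% intervals. The interval lies above 0 for Cxcl2 in SO minus CN and below 0 for Ccl20 in DO minus CN, and spans 0 in the other 22 cases.

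Ccl2 and Ccl7 encode ligands that recruit monocytes through the receptor Ccr2, and Ccl7 also binds Ccr1. The Ccl2 probe read 13.21, 13.37, 13.85 and 13.66 in SO hearts 1 to 4, 14.10, 13.62, 13.65 and 13.52 in DO hearts, and 13.86, 13.98, 13.12 and 13.33 in CN hearts. The groups overlapped: all 4 SO hearts lay inside the range of the CN hearts, and DO 1 was the highest heart. Ccl2 differed by -0.05 between SO and CN (95% interval -0.49 to 0.39, limma adjusted p = 0.98), by 0.15 between DO and CN (-0.29 to 0.59, adjusted p = 0.99) and by -0.20 between SO and DO (-0.64 to 0.24, adjusted p = 0.98). The difference between DO and CN was 0.00 without CN 3 and 0.02 without DO 1, and turned to -0.06 under median scaling. In RNA of heart tissue, fewer cells of a type and less RNA per cell cannot be told apart.

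Ccl7 read 11.10, 11.34, 11.79 and 11.41 in SO hearts, 12.22, 11.37, 11.35 and 11.33 in DO hearts, and 11.83, 11.82, 10.81 and 11.10 in CN hearts. DO 1 again stood highest, the other 3 DO hearts lay close together, and the SD was 0.28 in SO, 0.43 in DO and 0.51 in CN. The mean differed by 0.02 in SO against CN (95% interval -0.54 to 0.58, limma adjusted p = 1), by 0.18 in DO against CN (-0.38 to 0.74, adjusted p = 0.99) and by -0.16 in SO against DO (-0.72 to 0.40, adjusted p = 0.99). Under median scaling the differences from CN turned to -0.19 in SO and -0.05 in DO. Without the heart DO 1 the difference between DO and CN was -0.04.

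Ccl3 and Ccl4, which encode macrophage inflammatory proteins, varied widely between hearts. Ccl3 read 9.27, 9.51, 9.65 and 8.97 in SO hearts, 9.63, 9.01, 10.20 and 9.11 in DO hearts, and 8.90, 9.64, 8.94 and 9.29 in CN hearts. A single DO heart, DO 3, was the highest and the remaining 11 hearts lay between 8.90 and 9.65. The mean differed by 0.16 in SO against CN (95% interval -0.39 to 0.71, limma adjusted p = 0.96), which turned to -0.07 under median scaling, and by 0.29 in DO against CN (-0.26 to 0.84, adjusted p = 0.99), which was 0.06 without DO 3 and under median scaling. SO minus DO was -0.14 (adjusted p = 0.99), and 0.10 without DO 3.

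Ccl4 read 9.84, 10.25, 10.85 and 9.61 in SO hearts, 10.84, 9.83, 10.40 and 10.07 in DO hearts, and 10.37, 11.10, 9.90 and 10.08 in CN hearts. Each group held 1 heart at 10.84 or above, namely SO 3, DO 1 and CN 2, and the groups overlapped over nearly their whole range. The mean was lower than in CN by a log2 difference of -0.22 in SO (95% interval -0.89 to 0.44, limma adjusted p = 0.95) and of -0.08 in DO (-0.74 to 0.59, adjusted p = 1), and SO minus DO was -0.14 (adjusted p = 0.99). Without CN 2 the differences from CN were 0.02 in SO and 0.17 in DO.

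Ccl20 encodes the ligand of Ccr6, which draws memory T cells and dendritic cells. Its probe was detected in 4 of 12 hearts: in 0 of 4 SO hearts, in 1 of 4 DO hearts (DO 1) and in 3 of 4 CN hearts. It read 5.17, 5.12, 5.08 and 4.98 in SO hearts, none of them well above background, then 5.41, 4.89, 4.85 and 4.81 in DO hearts and 5.05, 5.40, 5.27 and 5.59 in CN hearts. The CN hearts were mostly higher, with overlap from CN 1 and DO 1. Because no SO heart measured the transcript, the group has only a bound, at 5.27, with a measured mean of 5.09. The CN mean of 5.33 includes CN 1, which did not detect the probe, so no smallest fold is given. The 95% interval of the log2 difference between SO and CN spanned 0 (-0.55 to 0.07, limma adjusted p = 0.84). In DO against CN the log2 difference was -0.34 (95% interval -0.65 to -0.02, limma unadjusted p = 0.037, adjusted p = 0.88), with DO 2, DO 3 and DO 4 below every CN heart. DO 1 was the only DO heart that measured the transcript, so the size of this difference rests on values near background, and it was -0.18 in the authors' normalized values, which keep the background.

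**Figure D2:**
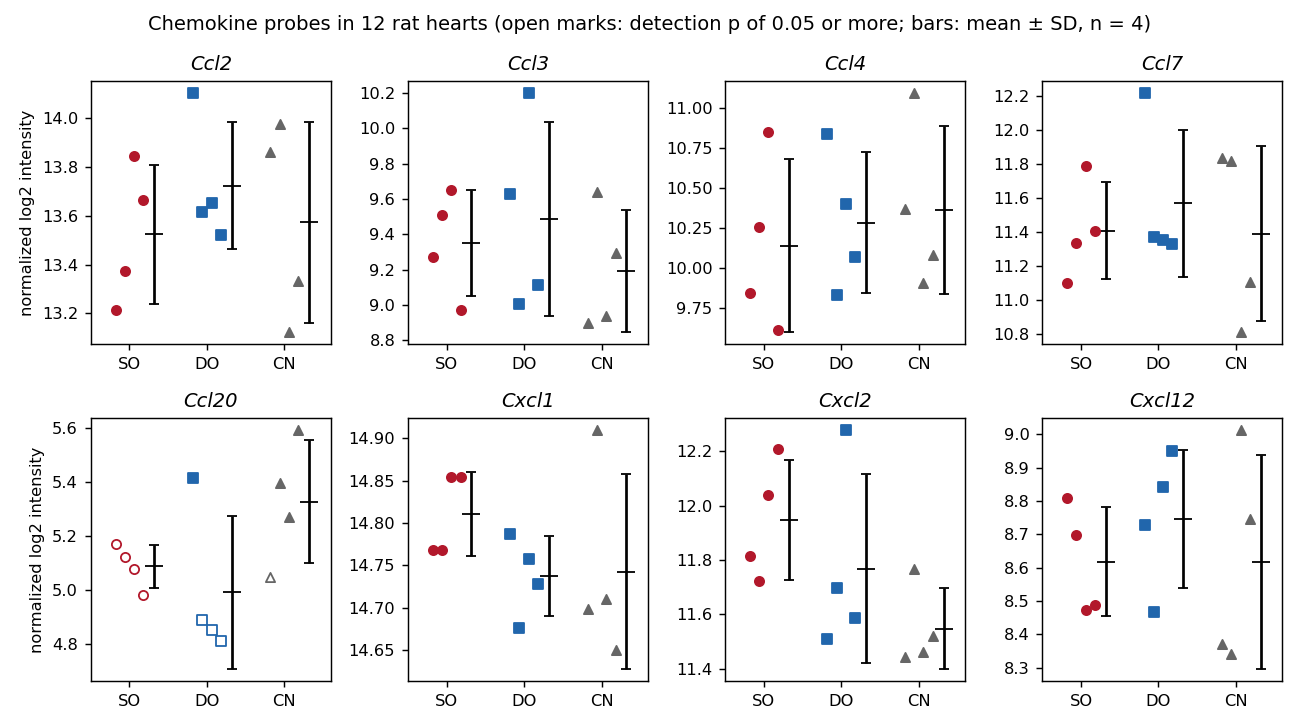
Normalized log2 intensity (y axis, a scale per gene) of each chemokine probe in the SO, DO and CN hearts, 4 per group, with bars for the mean ± SD. Open marks are hearts in which the probe was not detected, which are found for Ccl20 alone. For Cxcl2, 3 of 4 SO hearts lie above the highest CN heart.

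Cxcl1 and Cxcl2 encode neutrophil attractants and are read through Cxcr2. Cxcl2 read 11.81, 11.72, 12.04 and 12.21 in SO hearts, 11.51, 11.70, 12.28 and 11.59 in DO hearts, and 11.44, 11.77, 11.46 and 11.52 in CN hearts. Of the SO hearts, 3 of 4 were above the highest CN heart and SO 2 was below it, and DO 3 was the highest of all. The mean in SO was higher than in CN by 0.40 on the log2 scale, a fold of 1.32 (95% interval 1.03 to 1.69, limma unadjusted p = 0.031, adjusted p = 0.81), so it missed the threshold once all probes were counted. With median scaling it was 0.21 (adjusted p = 0.56).

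The mean of Cxcl2 in DO was 0.22 above CN (95% interval -0.13 to 0.58, limma adjusted p = 0.96), and that difference was 0.00 under median scaling and 0.05 without DO 3. Between the loads it was 0.18 higher in SO than in DO (-0.18 to 0.53, adjusted p = 0.97), and 0.35 without DO 3. The leave-one-out values for SO against CN ran from 0.31 to 0.47, with an adjusted p of 0.72 or more in each.

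The Cxcl1 probe was near the top of the intensity range in every heart. It read 14.77, 14.77, 14.85 and 14.85 in SO hearts, 14.79, 14.68, 14.76 and 14.73 in DO hearts, and 14.70, 14.91, 14.71 and 14.65 in CN hearts. The groups overlapped, with CN 2 the highest and CN 4 the lowest. The mean differed by 0.07 in SO against CN (95% interval -0.10 to 0.24, limma adjusted p = 0.94), by -0.01 in DO against CN (-0.18 to 0.17, adjusted p = 1) and by 0.07 in SO against DO (-0.10 to 0.25, adjusted p = 0.98). Raw intensities ran from 23539 to 31393, and between 4 and 43 of all probes on an array were brighter. Quantile normalization gives equal ranks equal values, so SO 1 and SO 2, each with 21 brighter probes, read the same. At this end of the range differences can be understated, how far was not tested, and the small spread of this probe does not show that the transcript was steady.

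Cxcl12 encodes a constitutive ligand of Cxcr4 and Ackr3. It read 8.81, 8.70, 8.47 and 8.49 in SO hearts, 8.73, 8.47, 8.84 and 8.95 in DO hearts, and 8.37, 8.34, 9.01 and 8.75 in CN hearts. The CN hearts split into a low pair, CN 1 and CN 2, and a high pair, CN 3 and CN 4, and the loaded hearts lay between their extremes. The difference was -0.00 in SO against CN (95% interval -0.34 to 0.34, limma adjusted p = 1) and turned to 0.03 with array weights. In DO against CN it was 0.13 (-0.21 to 0.47, adjusted p = 0.99) and turned to -0.12 under median scaling. SO minus DO was -0.13 (-0.47 to 0.21, adjusted p = 0.99).

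These genes varied between hearts of the same group. The SD within groups, pooled over the 3 groups, was 0.50 for Ccl4, larger than that of 97.2% of the tested probes. It was 0.42 for Ccl7 (larger than 95% of probes), 0.41 for Ccl3 (94.7%) and 0.33 for Ccl2 (89%), against a median of 0.19 over all probes. It was 0.25 for Cxcl2 and 0.24 for Cxcl12. Ccl20 (0.22) was not detected in most hearts and Cxcl1 (0.08) lay near the top of the intensity range, so neither SD is read as the spread of the transcript. From the lowest to the highest heart, the fold was 2.8 for Ccl4, 2.65 for Ccl7, 2.47 for Ccl3, 1.97 for Ccl2, 1.78 for Cxcl2 and 1.6 for Cxcl12.

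The chemokines were then compared with one another across the 12 hearts, in 28 pairs. A single pair passed an adjusted p of 0.05 over the 28 pairs, Ccl2 with Ccl7, with Pearson's r = 0.96 (permutation p = 1e-05, the smallest that 100000 permutations can give, adjusted p = 0.00028) and Spearman's rho = 0.98 (permutation p = 2e-05, adjusted p = 0.00056). It was 0.93 without the 2 hearts farthest from the median of Ccl2 and 0.96 after each group's mean was taken off (adjusted p = 0.01, permuted within groups). Leaving out each heart in turn gave 0.95 to 0.97. The same 4 hearts, SO 3, DO 1, CN 1 and CN 2, were the highest for both genes, so every group contributed at least 1 of them. Among 7347 genes with a tested probe, Ccl7 ranked 1 by r with Ccl2, and Ccl2 ranked 1 by r with Ccl7. The probe sequences were not used here, so binding of a probe to the neighbour's transcript was not tested.

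**Figure D3:**
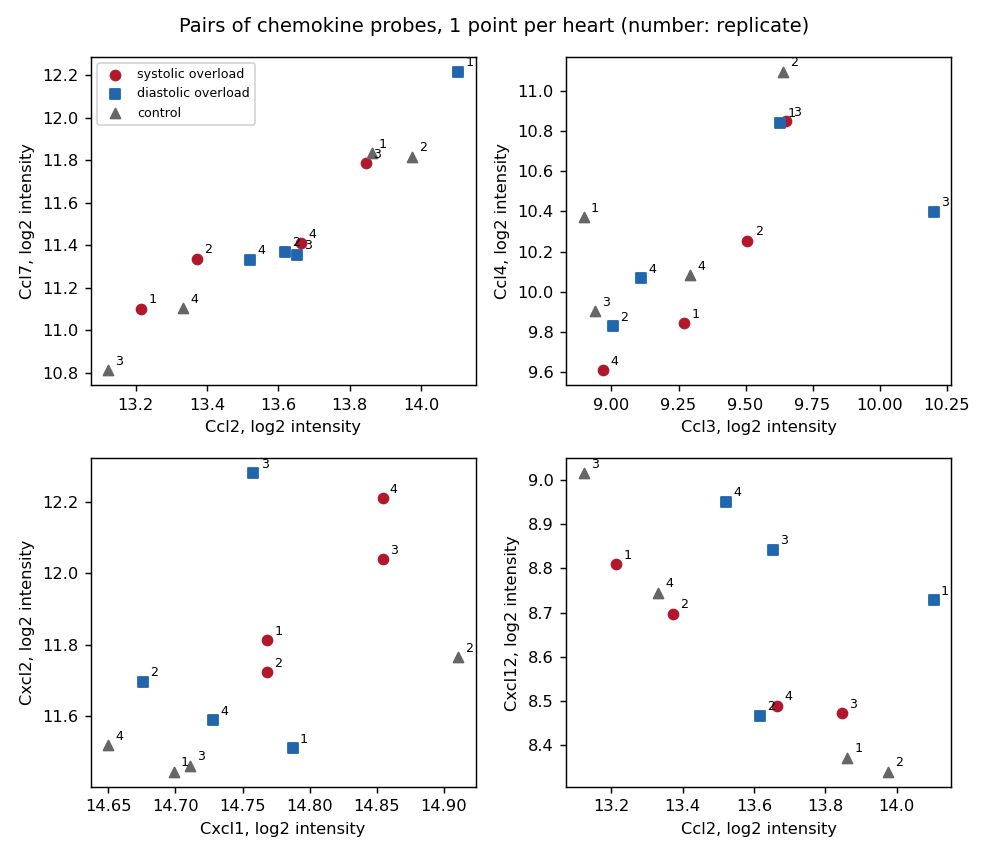
Normalized log2 intensities of 4 pairs of chemokine probes, 1 point per heart with its replicate number. Ccl2 and Ccl7 lie near a line that hearts of all groups share (r = 0.96), while the neighbours Ccl3 and Ccl4 (0.63) and Cxcl1 and Cxcl2 (0.54) scatter more widely and Ccl2 with Cxcl12 slopes down (-0.64).

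The other neighbouring pairs were looser. Ccl3 and Ccl4 had r = 0.63 (permutation p = 0.026, adjusted p = 0.15) and rho = 0.70 (adjusted p = 0.14). DO 3, the highest heart for Ccl3 and 0.14 above the mean for Ccl4, was 1 of the 2 hearts farthest from the median of Ccl3, and without those 2 hearts r was 0.90 (permutation, adjusted p = 0.0041). Cxcl1 and Cxcl2 had r = 0.54 (permutation p = 0.069, adjusted p = 0.28) and rho = 0.56 (adjusted p = 0.23). The Cxcl1 probe lay near the top of the intensity range, so its r and ranks are not read as those of the transcript. Among all genes, Ccl4 ranked 80 by r with Ccl3, and Cxcl2 ranked 193 by r with Cxcl1.

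Ccl4 also followed the monocyte attractants, with r = 0.75 and rho = 0.55 to Ccl7 (permutation, adjusted p = 0.068 and 0.23) and r = 0.72 and rho = 0.62 to Ccl2 (adjusted p = 0.087 and 0.21). Neither passed over the 12 hearts. Leaving out each heart in turn gave r of 0.70 to 0.82 to Ccl7 and 0.66 to 0.83 to Ccl2. The highest values were those without SO 4 (permutation, adjusted p = 0.018 each). That heart is named because leaving it out gave the highest r, and the adjustment over 28 pairs does not count that choice. Cxcl12 ran the other way: r was -0.64 and rho -0.66 to Ccl2 (permutation, adjusted p = 0.15 and 0.16), and r was -0.60 and rho -0.74 to Ccl7 (adjusted p = 0.19 and 0.11). Neither of these passed over the 12 hearts. Counted from the highest r with Cxcl12 down, Ccl2 ranked 7103 and Ccl7 7001 among 7347 genes, so other genes lay further in that direction. With each heart left out in turn, r ran from -0.81 to -0.53 to Ccl2 and from -0.83 to -0.46 to Ccl7. The strongest values were those without DO 1 (permutation, adjusted p = 0.039 and 0.021), a heart named in the same way, so that choice is not counted either. Of the 28 values of r, 20 were above 0.

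**Figure D4:**
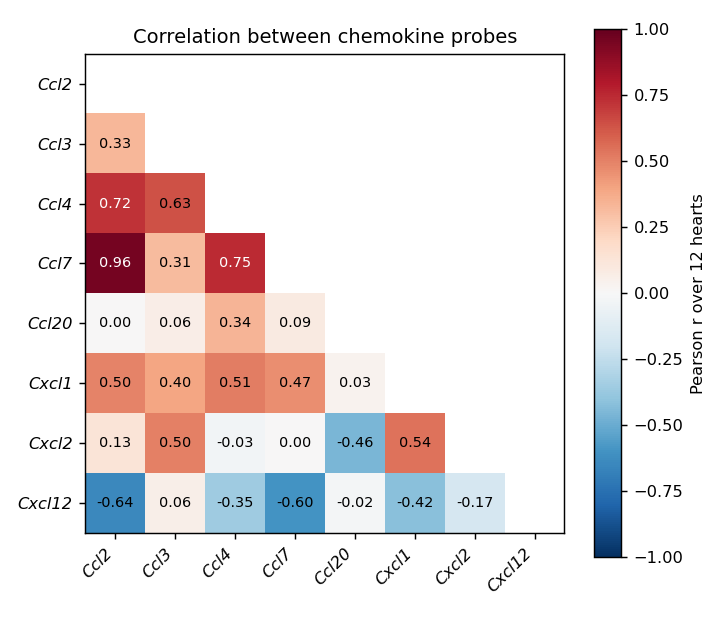
Pearson's r over 12 hearts for the 28 pairs of chemokine probes, coloured from -1 (blue) to 1 (red). Ccl2, Ccl4 and Ccl7 are positive with one another at 0.72 to 0.96, and Cxcl12 is negative with Ccl2 and Ccl7.

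The hearts were also set against scores of marker lists, where a heart's score averages, over the list's tested genes, how far each lay above or below its own mean, and against depth, in 96 relations over the 8 genes. By Pearson's r 7 passed an adjusted p of 0.05, and by Spearman's rho 0 did (the 7 had adjusted p from 0.061 to 0.1). They were 3 relations of Ccl2, 3 of Ccl7, and Ccl20 with the cardiomyocyte markers, which is not described since 8 of 12 hearts did not detect Ccl20. Ccl7 had r = 0.85 with the 12 fibroblast markers (permutation, adjusted p = 0.01) and rho = 0.84, and r = 0.89 with the 23 tested inducers and NF-kB feedback genes (adjusted p = 0.01, rho = 0.76). For Ccl2 the values were r = 0.79 with fibroblast markers (permutation, adjusted p = 0.016, rho = 0.82) and r = 0.86 with the inducers (adjusted p = 0.01, rho = 0.78).

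Both genes also followed the first principal component of all tested probes, which held 23.1% of the variance (r = 0.84 and rho = 0.78 for Ccl2, r = 0.86 and rho = 0.83 for Ccl7). SO 3, DO 1, CN 1 and CN 2 were at its high end, the same hearts as above. Cxcl12 ran against this component, with r = -0.71 and rho = -0.73, which did not pass (permutation, adjusted p = 0.14 and 0.1). Without the 2 hearts farthest from the median of the score, r with fibroblast markers was 0.69 for Ccl2 and 0.67 for Ccl7, and with the inducers 0.74 and 0.77. The fibroblast score ran from -0.23 to 0.08 in SO, from -0.24 to 0.62 in DO and from -0.27 to 0.29 in CN, with 0 of 12 markers called in any comparison. Its part in the levels of Ccl2 and Ccl7 was not tested. No relation of any chemokine with the number of detected probes or the raw median of the array passed. For Ccl20, near background, r was 0.68 and rho 0.67 with detected probes (permutation, adjusted p = 0.14 and 0.19). With the raw median its r was 0.61 and its rho 0.44 (adjusted p = 0.24 and 0.64).

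By the rule that the 3 genes with the highest r over the 12 hearts are named, Ccl2 and Ccl7 were followed by the same genes, Nsl1 (0.95 and 0.94), which encodes a kinetochore protein, and Casp1 (0.93 and 0.93), the protease that matures interleukin 1 beta. Ccl4 was most like Ccrl2 (0.93), an atypical chemoattractant receptor, Slc15a3 (0.88) and P2ry14 (0.87). Ccl3 was most like Epb41l4b (0.85), Cdca8 (0.83) and Cks2 (0.83). Cxcl2 was most like Cebpb (0.90), a transcription factor of inflammatory responses, Or4p7 (0.90) and Mctp2 (0.87). Cxcl1, near the top of the intensity range, was most like Efcab14 (0.86), Trim31 (0.85) and Zfp592 (0.80). Cxcl12 was most like Tm6sf1 (0.94), the potassium channel gene Kcnd2 (0.92) and Emb (0.92), and Ccl20, undetected in 8 of the 12 hearts, like Cdkn3 (0.90), Crcp (0.85) and Acap3 (0.84). These r describe the 7347 genes compared and carry no test.

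Receptors of the set differed in how many hearts detected them. Of 23 receptor genes listed, 17 were on the array and 9 were tested, with 0 called in any comparison and medians of -0.03 in SO against CN, 0.01 in DO against CN and -0.07 in SO against DO. Ccr2, the receptor of Ccl2 and Ccl7, was detected in 1 of 4 SO hearts, 3 of 4 DO hearts and 4 of 4 CN hearts. Its mean was 5.17 ± 0.18 in SO, 5.34 ± 0.25 in DO and 5.50 ± 0.26 in CN (SD, n = 4 each), and SO minus CN was -0.33 (limma adjusted p = 0.81). Cxcr4 was detected in 0 of 4 SO hearts, 1 of 4 DO hearts and 3 of 4 CN hearts, at means of 5.09, 5.06 and 5.45, and was not called (limma adjusted p = 0.81 and 0.88 against CN).

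Ccr1 was detected in all 12 hearts at means of 5.93 ± 0.42 in SO, 6.19 ± 0.37 in DO and 5.84 ± 0.42 in CN (SD, n = 4 each). Ackr3, the scavenging receptor of Cxcl12, was also detected in all 12, at 9.74 ± 0.27 in SO, 9.79 ± 0.28 in DO and 9.61 ± 0.25 in CN. Neither was called in any comparison (limma adjusted p from 0.95 to 0.99). Cxcr2 was detected in 0 of 12 hearts and Ccr6 in 2 of 12. Ackr1 and Ackr2 had no probe with that symbol here.

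Among the inducers, Tnf read 5.84 ± 0.24 in SO, 5.95 ± 0.26 in DO and 5.85 ± 0.24 in CN (SD, n = 4 each). Il1b, the interleukin 1 beta gene, was at 11.12 ± 0.28 in SO, 11.30 ± 0.61 in DO and 10.87 ± 0.50 in CN, with differences from CN of 0.24 in SO and 0.43 in DO (limma adjusted p = 0.94 and 0.95). Il6 was lower than CN by a log2 difference of -0.48 in SO and -0.44 in DO (adjusted p = 0.93 and 0.99), and the CN hearts had an SD of 1.19. Nfkbia, the inhibitor that NF-kB itself switches on, differed from CN by -0.01 in SO and -0.04 in DO (adjusted p = 1 and 0.99). Over the whole list of 28 genes, 24 were on the array and 23 were tested, 0 were called, and the medians were -0.09 in SO against CN, -0.05 in DO against CN and -0.07 in SO against DO. Its largest log2 differences were in Ptgs2, the inducible cyclooxygenase gene, at -1.11 and Sele, the E-selectin gene, at 0.56 in SO against CN (limma adjusted p = 0.81 each), and in DO against CN in Sele at 0.49 (adjusted p = 0.93). In SO against DO they were in the early response gene Ier3 at -0.80, where the groups did not overlap, as in 1.41% of tested probes in this direction (limma adjusted p = 0.64), and Ptgs2 at -0.78 (adjusted p = 0.93).

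Markers of the cells that answer these chemokines were measured beside them. Of 10 neutrophil markers, all on the array, 6 were detected in no heart (S100a8, S100a9, Csf3r, Elane, Ngp and Cxcr2) and Mmp9 alone was tested, with a log2 difference from CN of 0.23 in SO and 0.07 in DO (limma adjusted p = 0.85 and 0.99). Among macrophage and monocyte markers, of which 10 were tested, 8 averaged higher in SO than in CN and 10 in DO than in CN, with medians of 0.31 and 0.43, and 0 were called. Lyve1, which had the largest difference from CN in this list, was higher by 0.53 in SO and 0.72 in DO (limma adjusted p = 0.81 and 0.74). Which cells of the heart gave its signal was not tested. The macrophage score ran from -0.17 to 0.25 in SO, from -0.19 to 0.64 in DO and from -0.34 to -0.03 in CN. Its r was 0.50 with Ccl2, 0.50 with Ccl7 and 0.36 with Cxcl2, and its rho 0.42, 0.43 and 0.40, none of which passed (permutation, adjusted p for r = 0.46, 0.46 and 0.70). Without the 2 hearts farthest from the median of the score, r was 0.18, 0.14 and 0.76 in the same order, given without a test.

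The other chemokine ligands were not called either. Of 27 listed, 24 were on the array and 19 were tested, and 5 were detected in no heart (Ccl9, Ccl11, Ccl28, Cxcl3 and Cxcl6). In SO against CN 10 had a higher and 9 a lower mean (median 0.04), in DO against CN 11 were higher and 8 lower (0.07), and in SO against DO 6 were higher and 13 lower (-0.15). The largest log2 differences in SO against CN were in Cxcl9, induced by interferon and read by T cells, at -0.74 (limma adjusted p = 0.85), and Cxcl13, which draws B cells, at 0.66 (adjusted p = 0.90). In DO against CN they were in Ccl19 at -0.58 (adjusted p = 0.93) and the platelet chemokine Pf4 at 0.54 (adjusted p = 0.92). In the heart DO 1, Cxcl9 was 1.22 above its mean over the 12 hearts, and Cxcl10 and Cxcl11, named after their values were seen, were 1.05 and 1.00 above theirs.

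**Figure D5:**
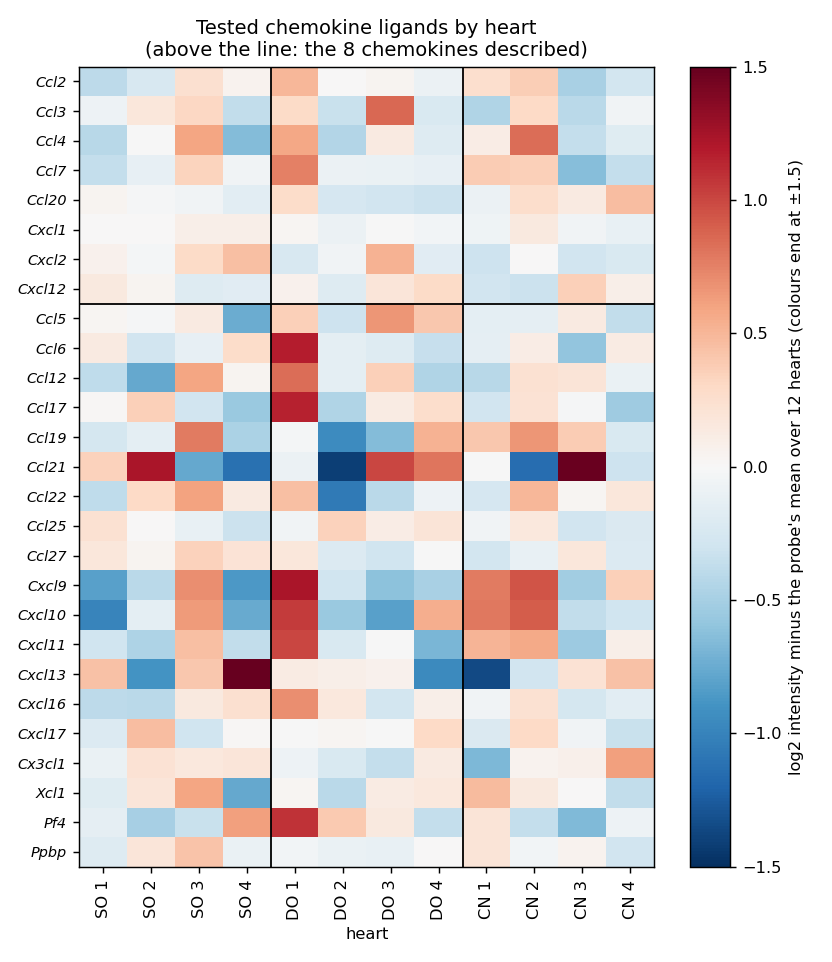
Log2 intensity minus the probe's mean over 12 hearts for the 8 chemokines (above the line) and the 19 other tested ligands, in SO, DO and CN hearts from left to right. Ccl2, Ccl4 and Ccl7 are above their means in SO 3, DO 1, CN 1 and CN 2, where the interferon-induced Cxcl9, Cxcl10 and Cxcl11 are also above theirs.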

How the data were processed

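Total RNA of 12 rat hearts was measured on Illumina bead arrays. The main table, as deposited, lists for every array the linear intensity of each probe, not normalized per the file headers. Beside it stands a deposited detection p-value that sets the probe against negative controls. A second table holds the authors' normalized intensity values, quantile normalized as worked out from the values. For both tables the software was not given in the sources used here. Gene names are those of the platform annotation: 13793 probes had 1 symbol, 0 several and 8730 none, and 13752 matched the RefSeq table for GRCr8.

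Background correction and quantile normalization used the neqc function of limma 3.58.1 under R 4.3.3, with an offset of 16 before log2. The probes tested were those detected (p under 0.05) in 4 or more of the 12 hearts. They were fitted with lmFit and eBayes, 1 mean per group over all 12 arrays, with Benjamini-Hochberg adjustment over 10234 probes in each contrast. Differences are of normalized log2 intensity, and folds are their antilogs. Changes of dim or near-saturated probes can therefore be understated, and how far was not tested. Where no heart of a group detected a probe, the group was given a bound, the lowest detected signal of each array averaged over the group, which concerns the group means and leaves out the spread. The number of hearts limits the precision. Correlations were tested by two-sided permutation in Python 3.11.15 with NumPy 2.4.6 and SciPy 1.17.1, adjusted over 28 pairs and, apart from these, over 96 relations with marker scores and array measures.

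The pipeline was tested on simulated data: in 10 simulated comparisons of SO with CN over 10234 probes, the calls held 47.8% of the probes that had been changed by log2 0.5, 91.8% for log2 1, 98.2% for 1.5 and 98.2% for 2. False calls averaged 9.5. These shares average over all probes, whose median SD within groups was 0.19, below that of most chemokines here. Many probes were changed in each run, and noise was drawn independently for each probe. The shares are therefore not the chance of finding a change in a single chemokine in these hearts. All 8 chemokines are named, with known receptors and main inducers (1 item of that rule is not reported here), the 3 genes most like each by Pearson's r, and up to 2 genes of each list by the size of their difference in a contrast. A gene with several tested probes is represented by the one with the highest mean. The chemokines and lists were chosen with earlier results of these data known. Alternatives were the authors' values, no background correction, median scaling, no filter, a stricter filter (detection p under 0.01), fits of the groups compared alone, the replicate number as a block, array weights, and leaving out each heart.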

Additional observations from a re-analysis of the deposited data

Results flagged for a closer look

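Of 24 sets of 4 hearts (8 chemokines in 3 groups), 2 held a heart far from the others by Dixon's criterion for 4 samples, where chance gives about 1 in 20. Both were the heart DO 1. Ccl7 was 12.22 in DO 1, and the gap to the nearest DO heart made up 0.957 of the range of the group. Without DO 1 the Ccl7 difference between DO and CN was -0.04 in place of 0.18. Ccl20 was 5.41 in DO 1, the only DO heart that detected it, with a gap of 0.871 of the range. Without DO 1 no DO heart measured it, so no difference from CN is given. DO 1 also had the highest score of fibroblast markers (0.62) and of macrophage and monocyte markers (0.64) of the 12 hearts, and the most detected probes (9931). Their part in these values was not tested.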

How the results depend on the processing

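The count of probes called was 0 in each contrast under all 8 alternatives to the normalization, filter and model and without each heart (smallest adjusted p 0.094), as was that of chemokines, and in place of 593, 562 and 647 probes at an unadjusted p under 0.05 (SO against CN, DO against CN, SO against DO) there were 1198, 1369 and 333 under median scaling and 1254, 1261 and 1328 of 22523 with no filter. Replicate numbers gave no sign of pairing: over 12 same-numbered pairs the correlation of deviations ran from -0.27 to 0.33 and was over 0.1 in 2, against -0.40 to 0.28 for other pairs. With the replicate block, 0 probes were called in each contrast (unadjusted p under 0.05 in limma for 628, 572 and 638). Each group holds 1 heart of each number, so this block leaves group differences as they were, and only their p-values can move. For Cxcl2 in SO against CN, at 0.40, the limma adjusted p was 0.80. The filters, the fits of the groups compared alone and the replicate block cannot change a difference of group means here. Under those settings the direction was fixed in advance. Of 189 chemokine differences under the 8 alternatives, these settings included, 182 kept their direction. Those that turned were, in SO against CN, Ccl3 (-0.071) and Ccl7 (-0.19) under median scaling and Ccl7 (-0.033) and Cxcl12 (0.032) with array weights, and, in DO against CN under median scaling, Ccl2 (-0.063), Ccl7 (-0.051) and Cxcl12 (-0.12), and for none was the cause tested. Leaving out each heart turned some differences, which ran in SO against CN from -0.20 to 0.086 for Ccl2, -0.46 to 0.021 for Ccl4, -0.18 to 0.16 for Ccl7 and -0.093 to 0.13 for Cxcl12. In DO against CN they ran from -0.27 to 0.17 for Ccl4, -0.040 to 0.32 for Ccl7 and -0.036 to 0.051 for Cxcl1, and in SO against DO from -0.30 to 0.10 for Ccl3, -0.38 to 0.042 for Ccl4 and -0.29 to 0.057 for Ccl7. The count of pairs called, 1 by r and 1 by rho, was 2 by each without the 2 hearts farthest from the median, and 1 to 5 by r and 1 to 2 by rho without each heart (5 by r without SO 4, 3 by r and 2 by rho without DO 1, 2 by rho without CN 1). Weak correlations changed sign. After group means were taken off, r was -0.015 for Ccl3-Cxcl12, 0.12 for Ccl4-Cxcl2, -0.024 for Ccl7-Cxcl2 and 0.14 for Ccl20-Cxcl12. Without the 2 farthest hearts it was -0.13 for Ccl2-Ccl20, -0.38 for Ccl3-Cxcl12, -0.022 for Ccl4-Cxcl1, 0.060 for Ccl4-Cxcl12 and -0.060 for Ccl7-Ccl20. Ccl7-Cxcl2 was -0.0014 in the authors' values and -0.0009 without background correction. Without each heart, r ran from -0.23 to 0.22 for Ccl2-Ccl20, -0.035 to 0.32 for Ccl2-Cxcl2, -0.023 to 0.47 for Ccl3-Ccl20, -0.16 to 0.27 for Ccl3-Cxcl12, -0.18 to 0.25 for Ccl4-Cxcl2, -0.18 to 0.33 for Ccl7-Ccl20, -0.21 to 0.22 for Ccl7-Cxcl2, -0.22 to 0.42 for Ccl20-Cxcl1 and -0.12 to 0.18 for Ccl20-Cxcl12. Under the stricter filter Ccl20 was not tested. Signal over background limits Ccl20, Ccr2, Ccr6 and Cxcr4, which were not detected in most hearts of at least 1 group.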

Other observations

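Other cell types of the heart were measured beside the chemokines, and none of their markers was called in any comparison by limma. Of 10 tested endothelial markers, 8 had a lower mean in SO than in CN and 9 in DO than in CN, with median log2 differences of -0.28 and -0.23 (smallest adjusted p 0.62 and 0.88). Of 8 tested lymphocyte markers, 4 had a higher mean in SO than in CN (median -0.09, smallest adjusted p 0.89) and 6 in DO than in CN (median 0.18, 0.73), and 7 had a lower mean in SO than in DO (median -0.25, 0.64). Mast cell markers, with 3 tested, had medians of 0.07 in SO against CN and 0.32 in DO against CN. Smooth muscle and pericyte markers (5 tested) had 0.01 and -0.13, and red cell and platelet markers (6 tested) had 0.04 and -0.12.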
